A study of Mus musculus with 2 samples.

Results

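Cytosolic ribosomal protein genes encode the proteins of the ribosome, and they were described here in the hippocampus of 5xFAD/CAST mice. Members were the genes with a protein-coding transcript whose symbol follows the Rps and Rpl naming pattern (Rpsa and Rplp0 to Rplp2 included, S6 kinase genes left out). The pattern found 86 members among 21866 protein-coding genes and 55536 annotated genes. Of these, 77 were core members, 31 of the small subunit and 46 of the large subunit, and 8 were variants, that is, paralogs of a core member. The last is Rps19bp1, which the pattern took by its name although it encodes a binding partner of Rps19 and not a ribosomal protein. Another 7 matching symbols had no protein-coding transcript and were not counted as members.

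Total RNA came from male adult mice of strain 5xFAD/CAST aged 8 to 10 months, with 300 ng per library, and the tissue label reads layer of hippocampus. 5xFAD mice carry human transgenes with familial Alzheimer disease mutations under the neuronal Thy1 promoter, and CAST names a wild-derived inbred strain. Both libraries, biological replicates 1 and 2, belong to this 1 group and carry 1 donor identifier. Each SD therefore covers the spread of these 2 samples alone, and that spread may be technical. Each p-value covers counting error alone and not the spread between samples. Non-transgenic controls were not analysed here, no condition was compared, and in bulk tissue fewer cells of a type and less RNA per cell cannot be told apart.

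The ribosome is built from ribosomal RNA and from a fixed set of proteins, nearly all present as a single copy, with Rplp1 and Rplp2 of the stalk as the known exception. Their mRNAs are short, abundant and begin with a pyrimidine-rich stretch, the 5′ terminal oligopyrimidine (TOP) motif, through which the kinase mTOR controls their translation. Their genes have also left many processed pseudogenes, intronless copies made by reverse transcription of the mRNA, and reads from such a copy and from the gene can be alike. In neurons, ribosomal protein mRNAs are present in the cell body and are also carried into dendrites and axons.

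Start sites are shown first because the TOP motif is the sequence feature that the family is known for. RefSeq promoter sequences on GRCm38.p6, which shares its coordinates with mm10, were held for 66 of the 86 members. Of the 5 members with the highest level, Rplp1 and Rps29 had no entry. For the others, 15 bases on either side of the annotated start are printed 5′ to 3′ on the coding strand, and capitals mark the longest run of C and T. The windows lie at chr10:128549154-128549183 (minus strand) for Rpl41, chr3:90213634-90213663 (minus strand) for Rps27 and chr7:45128731-45128760 (minus strand) for Rpl13a.
Rpl41: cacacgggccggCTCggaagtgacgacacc
Rps27: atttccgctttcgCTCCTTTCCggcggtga
Rpl13a: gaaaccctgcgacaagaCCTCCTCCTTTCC
The run was 9 bases long in Rps27, spanning the annotated start, and 3 bases long in Rpl41. In Rpl13a it began at the third transcribed base and ran to the end of the printed window, so it was at least 13 bases long. Where a gene had several listed starts, only the first was printed. For Rpl41 the gene as annotated for the counts begins outside the printed window, at chr10:128549305, and the bases there were not examined. An uninterrupted run of at least 8 C or T bases on the coding strand was then sought within 20 bases of each listed start. For this run and for the letters below, a match at any listed start of a gene counted. The number of starts per gene was not compared. The run was found for 30 of 66 members (45.5%), against 3036 of 16515 protein-coding genes in the same table (18.4%). Between the subunits the counts were 10 of 23 small subunit core members and 18 of 34 large subunit core members. The letters CCGGAA, on either strand from 250 bases before to 50 bases after the start, stood in 36 of 66 members (54.5%) and in 21.5% of all genes. AANATGGC on either strand stood in 13 members (19.7%) and in 7.59% of all genes. TATAAA within 40 bases before the start stood in 1 member (1.52%) and in 3.35% of all genes. CCGGAA and AANATGGC can overlap in a shared AA, such overlaps were not removed, and a match is a description of the window and not a bound site.

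Nearly the whole core set was present at high level. Levels are given as TPM, a length-scaled share of the library's transcripts, from the alignment-based gene table unless another is named. Replicate 1 had a member median of 206 TPM and replicate 2 one of 205 TPM, against 4.5 and 4.36 TPM over all protein-coding genes. Of the 86 members, 83 reached TPM of at least 1 in both libraries, where 60.6% of all protein-coding genes did, and the 3 that did not were variants. Together the members held 4.27 ± 0.166% (SD, n = 2) of the TPM of nuclear protein-coding genes but 0.913 ± 0.0354% of their expected counts. Their leading coding transcripts were short, with a median of 679 bases against 2946 bases for protein-coding genes at TPM of at least 10.

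**Figure D1:**
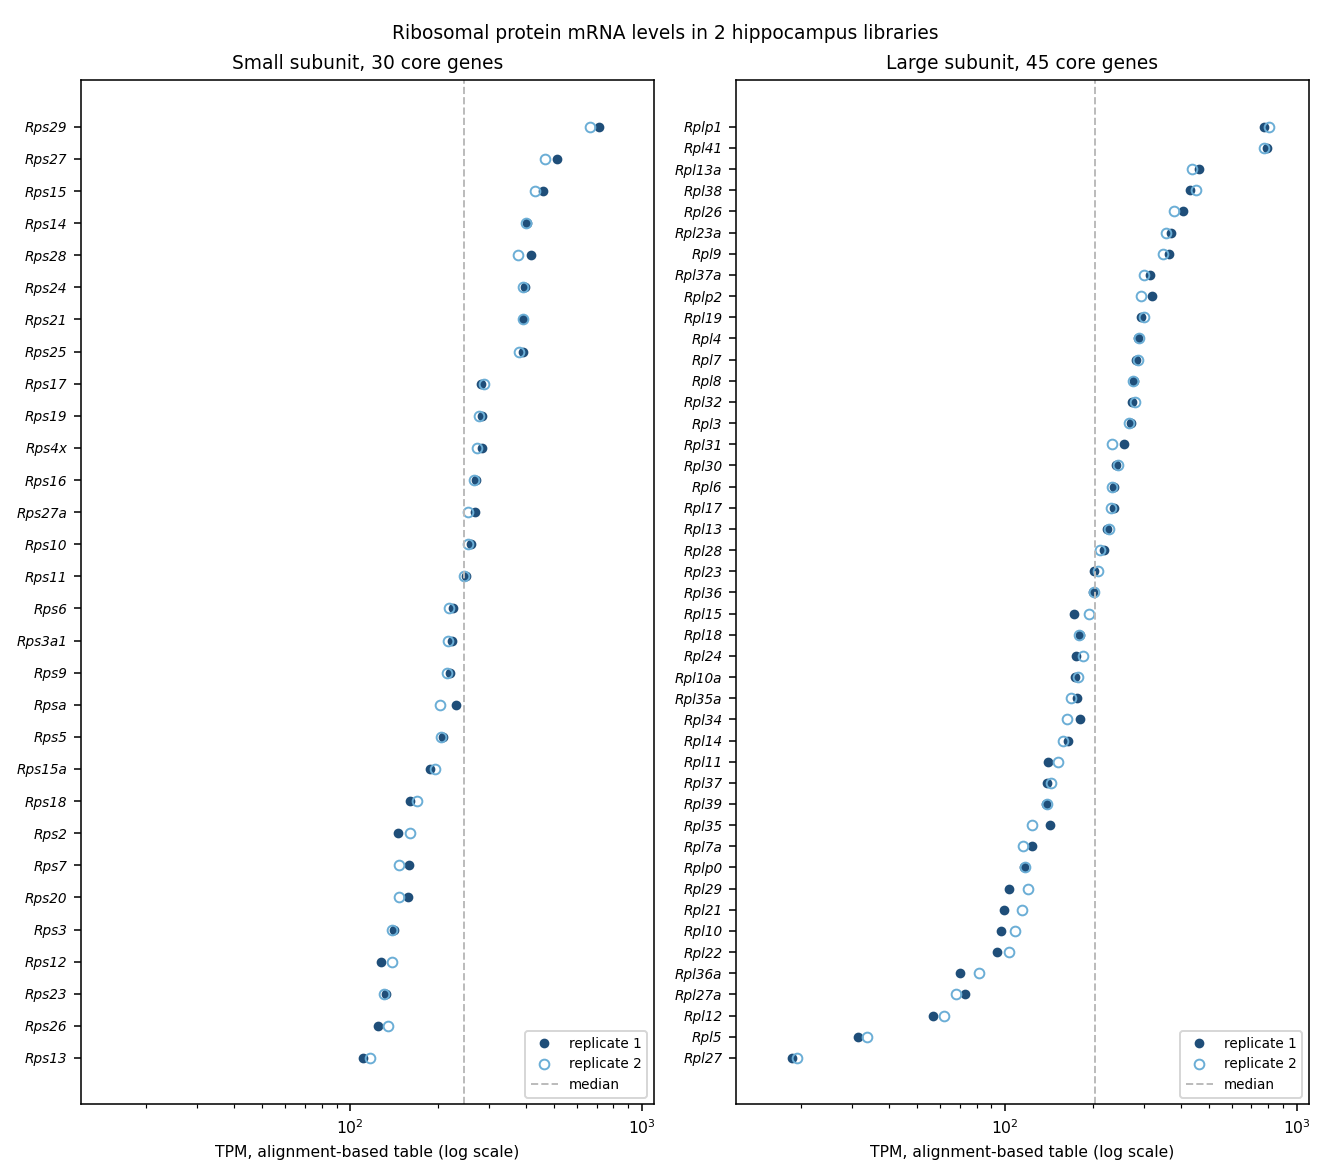
TPM (log scale) of 30 of the 31 small subunit core genes (left) and 45 of the 46 large subunit core genes (right) in replicate 1 (filled) and replicate 2 (open), ordered by mean, with the mean of the libraries' medians over the whole subunit dashed. Rps29 at 714 and 667 TPM leads the small subunit, and Rplp1 and Rpl41 lead the large subunit, whose lower end reaches Rpl27 at 18.6 and 19.4 TPM.

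The highest members were small proteins and a stalk protein. Rplp1, part of the acidic stalk that recruits the translation factors, reached 771 TPM (replicate 1) and 801 TPM (replicate 2). Rpl41, the shortest ribosomal protein, stood at 788 and 772 TPM, so the order of these top members differed between the libraries. Rps29, a short zinc-binding protein of the small subunit, followed at 714 and 667 TPM. Below them came a gap, to Rps27 at 514 and 466 TPM and Rpl13a at 462 and 440 TPM. The coding sequence of Rpl41 is shown whole because one of the most abundant ribosomal protein mRNAs has a very short reading frame, 25 codons and a stop. It lies within chr10:128548387-128548960 on the minus strand of mm10, introns included, with the start and stop codons in capitals.
Rpl41: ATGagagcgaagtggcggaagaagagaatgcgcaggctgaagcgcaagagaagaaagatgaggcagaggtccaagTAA
Rpl41 lies on chromosome 10, Rplp1 on chromosome 9 and Rps29 on chromosome 12, and the members as a whole were spread over 19 chromosomes. Shorter core members had the higher TPM, with a Spearman rho of -0.44 across the 77 genes between leading coding length and TPM. The same rho against expected counts was 0.13. These are descriptions across genes, which are not independent replicates, and TPM itself divides by length.

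The lowest core members were Rpl27, Rpl5 and Rpl12, and most of the alignment-based counts of each family went to copies, as described below. Rpl27, a large subunit protein, had 105 and 121 TPM in the alignment-free table, against 18.6 and 19.4 TPM in the alignment-based table. Rpl5, which with Rpl11 binds the 5S ribosomal RNA and can restrain the p53 ligase Mdm2 in free form, stood at 31.4 and 33.7 TPM. Rpl12, at the base of the stalk, stood at 56.9 and 61.7 TPM. Over the core set the highest TPM was 42.4-fold the lowest in replicate 1 and 41.3-fold in replicate 2. Within 2-fold of the core median lay 61 and 64 of the 77 genes.

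By role, levels within the stalk ranged widely for the genes without their copies. Rplp1 averaged 786 TPM, Rplp2 306 TPM, Rplp0 117 ± 0.884 TPM and Rpl12 59.3 ± 3.39 TPM (SD, n = 2). Within the 5S particle, Rpl11 averaged 146 ± 7.95 TPM and Rpl5 32.5 ± 1.63 TPM. The 9 proteins that line or surround the exit of the nascent chain ranged from Rpl22 at 98.4 ± 6.59 TPM to Rpl26 at 394 ± 21.4 TPM. Rps2 and Rps3 at the mRNA entry site averaged 154 ± 9.72 and 141 ± 1.53 TPM. Rps6, the substrate of the S6 kinases, averaged 222 ± 5.20 TPM, and Rps27a, made as a fusion with ubiquitin, 261 ± 10.8 TPM. The 10 members whose human counterparts are mutated in Diamond-Blackfan anaemia had a median of 214 ± 5.24 TPM, between the Rpl5 value and 395 ± 4.33 TPM for Rps24. The core median was 221 ± 4.94 TPM. For the genes alone in the alignment-based table, both 5S particle proteins and both mRNA entry proteins lay below it. The stalk, the exit and the anaemia groups had members on either side. In the alignment-free table Rpl11 lay above the core median of that table, 257 ± 5.97 TPM. The Rps2 copy Rps2-ps13, at 201 and 205 TPM in replicates 1 and 2, was not added to Rps2 here. Nor were the copies of Rpl5 and Rpl12, which held most of the counts of these families in both tables, as described below. The low values of Rpl5 and Rpl12 are therefore those of the genes alone, and the levels with copies are given below.

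Small subunit core members had medians of 250 and 241 TPM in replicates 1 and 2, against 202 and 205 TPM for the large subunit. The log2 ratio of these medians was 0.27 ± 0.06 (SD, n = 2), with the small subunit higher in both libraries. In the alignment-free table the medians averaged 254 ± 2.20 TPM for the small subunit and 258 ± 11.2 TPM for the large subunit, with a log2 ratio of -0.02 between them, so the direction did not hold across the tables. No test was made, because genes are not replicates of a subunit.

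Most members shared sequence with other genes of the annotation. The read length was taken as 101 bases, inferred from the difference between length and effective length in the tables and not checked otherwise. Each leading coding transcript was therefore cut into all of its 101-base windows. Other genes' transcripts held a median of 38.7% of the members' windows, against 0% over 21817 protein-coding genes. At least 50% of the windows were held elsewhere for 35 of 86 members (40.7%), where 6.72% of protein-coding genes reached that share. The share was 98.4% for Rps27, 91.6% for Rpl10 and 89.4% for Rps10, and 10 members shared no window.

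The copies were found by alignment of the members' coding transcripts to all annotated transcripts. Copies were genes outside the member set with at least 90% identity over at least 150 bases and 80% of the copy's transcript. Each copy was assigned only to the member it aligned to best. Variants such as Rps27rt are members, so they were not counted as copies and not summed with their partners. The definition was chosen after the data were seen. It gave 1076 copies, of 80 members, of which 1029 are annotated as processed pseudogenes. Rpl7a had 86, Rpl21 81 and Rpl29 64. Expected counts above 0 were given to 303 copies in replicate 1 and 317 in replicate 2. In the alignment-free table the copies held 12.5 ± 0.0644% (SD, n = 2) of the counts of members and copies together, against 21.7 ± 0.0404% in the alignment-based one. That difference was larger than the spread between the libraries. Among the 298 entries that are named as pseudogenes of a member, the share of counts was 4.99 ± 0.0617% alignment-free and 11.4 ± 0.247% alignment-based.

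The pseudogene with the most counts was Rpl3-ps1, a copy of the peptidyl transferase centre protein gene Rpl3, with 3441 expected counts in replicate 1 and 3635 in replicate 2. It differs from the Rpl3 coding sequence at 2 of 1209 compared bases. A stretch around the first difference is shown to make plain how few bases tell the genes apart, with the differing base in capitals, for Rpl3 at chr15:80082509-80082549 (minus strand) and for Rpl3-ps1 at chrX:13202608-13202648 (plus strand), both on mm10.
Rpl3: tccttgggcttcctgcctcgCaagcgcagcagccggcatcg
Rpl3-ps1: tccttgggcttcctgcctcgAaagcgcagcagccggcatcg
For Rpl3-ps1 the alignment-free table held 2820 and 3225 counts, so both tables kept it as a separate source. Other copies had no differing base at all in the reference. Gm15500 matched Rpl5 over all 894 coding bases, Gm10275 matched Rpl12 over 498, and Gm11518 and Rpl27-ps3 each matched Rpl27 over 411. Gm11518 and Rpl27-ps3 were given 511 counts each in replicate 1 and 522 each in replicate 2, more than the 189 and 205 counts of Rpl27 itself.

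Copies held over 50% of a family's counts for 4 members in each library of the alignment-free table. In the alignment-based table they did so for 12 members in replicate 1 and 14 in replicate 2. Copies were sought for the members alone, so these counts have no background among other genes. Of the Rpl27 family, copies held 24.5 and 16.1% alignment-free and 84.5 and 83.6% alignment-based. For Rpl5 the shares were 64.2 and 61.0% alignment-free and 78.7 and 78.2% alignment-based. For Rpl12 they were 58.3 and 57.8% alignment-free and 70.9 and 69.8% alignment-based. Only Rpl5 and Rpl12 were over 50% in both tables and both libraries. For Rpl10, which joins the large subunit last and lies near the P site, copies held 0.368 and 0.196% alignment-free and 68.1 and 63.8% alignment-based. The copy in question was Rpl10-ps3, an entry on chromosome 9 that the annotation classes as protein coding, with 0 counts alignment-free and 2672 and 2593 counts alignment-based. Which entry the reads came from was not tested.

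The tables were then compared gene by gene. The count of a gene in the alignment-free table over that in the alignment-based table had a median of 1.12 ± 0.00685 over the 79 members with at least 500 expected counts, against 1.14 ± 0.00141 over 7455 protein-coding genes (SD, n = 2). More than 1.5-fold above the gene median in both libraries lay 6 of 79 members, Rpl10, Rps23, Rpl36a, Rpl21, Rpl5 and Rpl28, where 0.241% of protein-coding genes did. More than 1.5-fold below it lay Rpl36 and Rplp1, 2 of 79, where 0.268% of protein-coding genes did. The ratio was 3.17 ± 0.123 for Rps23, a decoding centre protein, and 3.14 ± 0.258 for Rpl10. It was 0.342 ± 0.0260 for Rpl36 and 0.575 ± 0.0241 for Rplp1. Rpl27, under the count limit of 500, reached 5.30 ± 0.232.

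Summing each member with its copies brought the tables together for most families. For gene plus copies the ratio was 1.06 ± 0.00977 for the Rpl27 family, against 5.30 for the gene alone. It came to 1.12 ± 0.00853 for Rps23, 1.07 ± 0.00775 for Rpl10, 1.08 ± 0.00559 for Rpl5 and 1.09 ± 0.00216 for Rpl21. The SD of the log2 ratio over the 79 members was 0.20 with the copies and 0.43 without. With copies summed, 2 members stayed more than 1.5-fold from the gene median in each library, Rpl36 at 0.442 ± 0.0232 and Rplp1 at 0.627 ± 0.0222. Rps21, a small subunit protein with no shared window, was the next lowest at 0.791 ± 0.0170. What sets these apart was not tested.

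**Figure D2:**
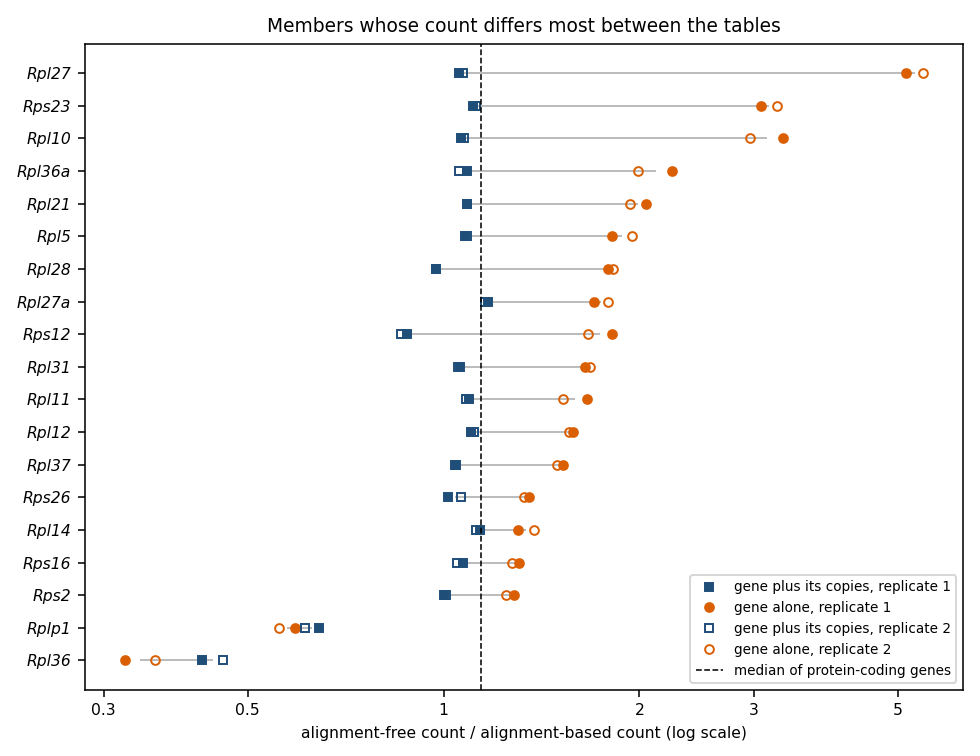
Alignment-free count over alignment-based count (log scale) for 19 of the 20 members farthest from a ratio of 1 among those with at least 100 expected counts and an alignment-free count above 0, for gene plus copies (squares) and gene alone (circles), filled for replicate 1 and open for replicate 2. The dashed line is the median of protein-coding genes, about 1.14, and most squares lie near it while Rpl36 and Rplp1 stay below.

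The same sum narrowed the range of levels within the core set. Gene plus copies, the SD of log2 TPM over the 77 core members was 0.57 ± 0.01 (SD, n = 2), against 0.91 ± 0.03 for the genes alone. With copies, 71 core members lay within 2-fold of the core median in each library, and the highest was 8.86-fold the lowest in replicate 1 and 8.93-fold in replicate 2. The Rpl27 family stood at 201 and 193 TPM, the Rpl5 family at 224 and 229 TPM and the Rpl12 family at 311 and 297 TPM, against a core median of 304 ± 9.62 TPM for families. The lowest family was then Rpl22, at 94.8 and 104 TPM, whose 4 copies held under 1% of its counts. Rpl39 followed at 139 and 140 TPM and Rps3 at 142 and 140 TPM. The log2 ratio of small over large subunit medians was 0.14 ± 0.01 for gene plus copies. In the alignment-free table the SD of log2 TPM was 0.62 ± 0.02 with copies and 0.75 ± 0.03 without, a smaller step in the same direction. Where a copy is itself transcribed, this sum counts its RNA as that of the gene.

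In the alignment-based table, 2 of the 8 variants stood level with their core partner and 6 far below it. Rpl36al on chromosome 12 had 78.7 and 85.6 TPM in replicates 1 and 2, against 70.0 and 81.6 TPM for Rpl36a on chromosome X. The values overlap, since Rpl36al in replicate 1 lies below Rpl36a in replicate 2. In the alignment-free table Rpl36al had 58.3 and 75.5 TPM and Rpl36a 156 and 172 TPM, so the order there was the other way. The pseudogene Rpl36a-ps2 held 610 and 565 counts alignment-based, and 74.1 and 0 alignment-free, in replicates 1 and 2. Both encode 106 codons, and the first 60 coding bases are shown with the bases of Rpl36al that differ in capitals, at chr12:69183077-69183136 (minus strand) for Rpl36al and within chrX:134585717-134586134 (plus strand) for Rpl36a.
Rpl36al: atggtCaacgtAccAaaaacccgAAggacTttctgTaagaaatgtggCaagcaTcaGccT
Rpl36a: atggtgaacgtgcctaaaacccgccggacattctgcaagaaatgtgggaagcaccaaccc
The pair differed at 11 of these bases and at 39 of 321 in all. Rpl22l1, the paralog of the RNA-binding protein Rpl22, had 103 and 101 TPM, against 93.8 and 103 TPM for Rpl22. Their values also overlap, and the alignment-free means were 103 ± 0.668 TPM for Rpl22l1 and 91.5 ± 7.75 TPM for Rpl22 (SD, n = 2).

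Tissue-restricted variants were absent or nearly so. Rpl3l, the heart and skeletal muscle paralog, had 3 expected counts in replicate 1 and 6 in replicate 2, or 0.18 and 0.24 TPM, against 271 and 266 TPM for Rpl3. Rpl3l was 1508-fold lower in replicate 1, with a 95% counting interval of 516 to 7312, and 1109-fold lower in replicate 2, with an interval of 509 to 3021. Rpl10l, the testis retrogene of X-linked Rpl10, had 0 counts in both libraries and was at least 542-fold and 647-fold lower than Rpl10, at a floor of 3 counts per library. Rpl39l, another testis paralog, also had 0 counts and was at least 484-fold and 521-fold lower than Rpl39. Intervals and floors cover counting error only.

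Rpl7l1 had 17.8 and 20.9 TPM, against 281 and 287 TPM for Rpl7, or 6.81 ± 0.656% of it (SD, n = 2). Rps27l, a p53-responsive paralog, had 21.8 and 18.9 TPM, against 514 and 466 TPM for Rps27, or 4.14 ± 0.129%. The retrogene Rps27rt was listed at 0 alignment-free and had 17.6 and 11.7 TPM alignment-based. The Rps27 group is shown because its variants differ in how far reads can tell them apart, with the first 60 coding bases of each and the bases that differ from Rps27 in capitals. Rps27l lies within chr9:66946175-66946884 (plus strand), Rps27rt at chr9:114982648-114982707 (minus strand) and Rps27 within chr3:90213248-90213615 (minus strand).
Rps27l: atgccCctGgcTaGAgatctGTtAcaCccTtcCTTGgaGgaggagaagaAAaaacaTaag
Rps27rt: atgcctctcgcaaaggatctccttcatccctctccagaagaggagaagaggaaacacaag
Rps27: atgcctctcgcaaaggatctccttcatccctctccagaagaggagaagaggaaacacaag
Rps27l differed from Rps27 at 18 of these bases and at 61 of 255 coding bases, and Rps27rt at 0 of 255. For Rps27rt the split from Rps27 therefore rests on bases outside the coding sequence, and its level is uncertain. Rps19bp1 stood at 12.4 and 13.3 TPM.

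**Figure D3:**
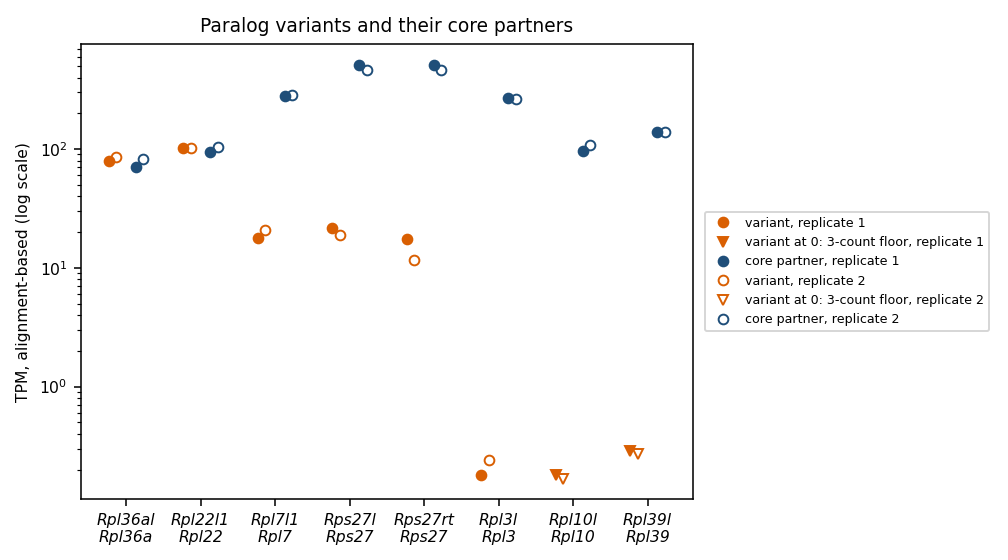
TPM (log scale) of each variant (orange) and its core partner (blue) in replicate 1 (filled) and replicate 2 (open), with triangles at the 3-count floor for variants at 0 counts. In this alignment-based table Rpl36al and Rpl22l1 lie at the level of their partners, and the others lie far below. In the alignment-free table Rpl36al was at 37.3 and 43.9% of Rpl36a.

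The deposited coefficient of quartile variation states how uncertain a TPM estimate is, as a ratio. It was lower for members, with a median of 0.0189 ± 0.000575 over the 83 members at TPM of at least 10, against 0.0301 ± 0.00111 over 8266 protein-coding genes (SD, n = 2). The members also had more counts, a median of 2093 and 2184 against 1233 and 1364. The coefficient was at least 0.05 in both libraries for 7 of 83 members, where 10.8% of protein-coding genes reached it. These were Rps27rt at 0.199 and 0.264, Rpl27 at 0.0765 and 0.0775, Rps12 at 0.0576 and 0.0716, Rpl10 at 0.0664 and 0.0620, Rpl7l1, Rps27l and Rps19bp1. Of the windows of the first 4, at least 60.5% were held by other genes, and of the last 3, at most 1.60%.

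Within a gene, most members had their TPM on transcripts annotated as coding. The median coding share was 93.2 ± 0.579% alignment-free and 95.8 ± 0.498% alignment-based for members (SD, n = 2), and 82.6 ± 0.648% and 85.7 ± 0.268% for protein-coding genes at TPM of at least 10. A set of members stood at the other end. Coding transcripts held under 50% in both libraries for 16 of 83 members alignment-free, where 11.4% of genes did, and for 14 of 83 alignment-based, where 9.52% of genes did. Both tables had 9 of them in common, Rpl23, Rpl24, Rpl35, Rpl37, Rps16, Rps18, Rps20, Rps23 and Rps26.

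In these 9 genes the leading transcript was annotated as a retained intron or as a processed transcript without a reading frame. The 5 lowest alignment-based shares belonged to Rps16 (2.49 and 1.85%), Rpl35 (3.27 and 3.59%), Rps20 (4.33 and 4.69%), Rps26 (6.97 and 6.86%) and Rps18 (12.2 and 14.1%). In Rps20 the retained-intron transcript Rps20-201, 582 bases long, held 69.3 ± 1.89% of TPM alignment-free and 81.3 ± 0.221% alignment-based. In Rps26, Rps26-202 held 92.6 ± 0.0966% alignment-free and 91.5 ± 0.346% alignment-based. In Rpl35, the processed transcript Rpl35-203 held 94.6 ± 0.528% alignment-free and 94.6 ± 1.40% alignment-based. In Rps16, Rps16-203 held 80.8 ± 2.31% alignment-free and 63.7 ± 1.15% alignment-based. The tables had the same leading transcript for these 4 genes and for Rpl23 and Rpl24. The leading transcript differed between the tables in Rps18, with Rps18-209 at 53.2 ± 4.73% alignment-free and Rps18-210 at 77.2 ± 0.909% alignment-based, and also in Rps23 and Rpl37.

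For other members the tables disagreed, and the example Rps13 was chosen after its values were seen. In Rpl22l1, the coding transcript Rpl22l1-201 held 71.9 ± 1.71% of TPM alignment-free and 4.34 ± 2.75% alignment-based. In Rps13, the coding transcript Rps13-201 held 3.63 ± 2.23% alignment-free and 80.5 ± 0.810% alignment-based. The leading transcript was the same in both tables and both libraries for 45 of 79 members with several transcripts (57.0%), where 74.7% of such protein-coding genes agreed. These shares are estimates from overlapping transcripts, and spliced against unspliced RNA was not measured.

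**Figure D4:**
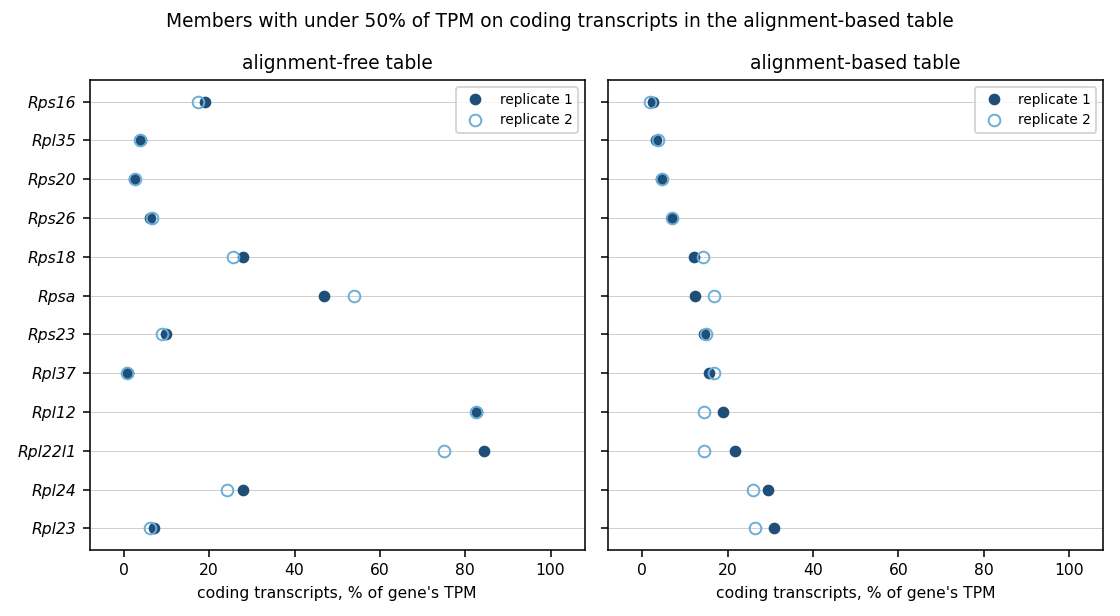
Share of a gene's TPM on transcripts annotated as protein coding in the alignment-free table (left) and the alignment-based table (right), for 12 of the 14 members under 50% in both libraries of the alignment-based table, with replicate 1 filled and replicate 2 open. Rpl35, Rps20 and Rps26 are low in both panels, while Rpl12 and Rpl22l1 are high on the left and low on the right.

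Introns of ribosomal protein genes are known hosts of small nucleolar RNAs, which guide the modification of ribosomal RNA. A snoRNA gene lay inside and on the strand of 30 of 86 members (34.9%), where 1.17% of protein-coding genes hosted one. There were 58 such snoRNA genes, with 5 in Rpl4 and 4 in Rpl13a. Of the 58, 35 are at most 100 bases long, under the read length inferred above. The alignment-based table gave a count above 0 to 13 of the 58 in replicate 1 and 15 in replicate 2. The abundance of these snoRNAs could therefore not be read from these libraries.

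Depth and tissue content differed between the libraries as follows. The alignment-based tables summed to 28689423 expected counts in replicate 2 and 26128897 in replicate 1, and 3 counts are worth 0.105 and 0.115 CPM. Markers of hippocampal excitatory neurons were present, with 7 of 7 above 0 in both libraries, a summed level of 3577 TPM in replicate 2 and 2964 TPM in replicate 1, and Hpca at 848 and 639 TPM. All 10 choroid plexus markers were lower in replicate 2, with a summed level of 286 TPM there and 1465 TPM in replicate 1. All 8 striatum markers were lower too, with summed levels of 78.8 TPM in replicate 2 and 211 TPM in replicate 1. Microglia markers were lower in replicate 2 for 8 of 8 (3 called by the binomial test described below), oligodendrocyte markers for 6 of 7 (2 called) and astrocyte markers for 5 of 7 (3 called), with median log2 ratios of -0.07, -0.03 and -0.03 and with 0 called higher. In replicates 2 and 1 the summed levels were 707 and 724 TPM for microglia, 1503 and 1521 TPM for oligodendrocytes and 2498 and 2494 TPM for astrocytes, and no marker was at 0. The part of these markers in the differences below was not tested.

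The members moved little between the libraries, and slightly downward in replicate 2. The log2 ratio of replicate 2 over replicate 1, on expected counts with edgeR's TMM scaling, had a median of -0.04 over the 83 members with a mean count of at least 20, against -0.00138 over 16971 genes tested. It was below 0 for 61 of 83 members, against 50.3% of genes tested. The median absolute ratio was 0.0645 for members and 0.119 for all genes tested, and 0.0762 for protein-coding genes with a mean count of at least 500. The ratio was below 0 for 25 of 31 small subunit and 32 of 46 large subunit core members, with medians of -0.06 and -0.03. With the deposited spike-ins as the scale the median of all genes shifted to 0.27 and that of the members to 0.22, so the sign of the members' ratio depends on the scaling. A scaling moves all genes by 1 constant, so it leaves the members' distance from the median of all genes, -0.04, as it is. That distance was -0.03 with alignment-free counts, -0.02 with no count filter and -0.05 at a mean count of at least 100. Protein-coding genes with a mean count of at least 500 had a median log2 ratio of 0.026 with TMM scaling.

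Of the 83 members 1 was more than 25% apart, where 17.3% of genes tested were, with 0 higher in replicate 2 (background 5.48%) and 1 lower (background 11.8%). It was Rps27rt, with 62.0 expected counts in replicate 2 and 87.6 in replicate 1, whose level is uncertain as described above. The exact binomial test on counts, two-sided with Benjamini-Hochberg adjustment over all genes tested, compares these 2 libraries against counting error alone. It passed at 0.05 for 20 of 83 members, where 18.4% of genes tested passed. Of these, 18 were lower in replicate 2 (background 9.13%) and 2 higher (background 9.29%).

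Rpl35 had 1090 counts in replicate 2 and 1156 in replicate 1, a log2 ratio of -0.21 after scaling (exact binomial adjusted p = 0.00482). Rps27 had 2250 counts in replicate 2 and 2312 in replicate 1, a log2 ratio of -0.17 (exact binomial adjusted p = 0.00116). Rps29 had 3753 and 3757 counts in the same order, a log2 ratio of -0.13 (exact binomial adjusted p = 0.00124). For these 3 genes the raw counts were close but already lower in replicate 2. That was the deeper library, so the scaling for depth widened the difference. The highest ratios were 0.20 for Rpl36a, which did not pass (exact binomial adjusted p = 0.0922), 0.17 for Rpl21 (exact binomial adjusted p = 0.00807) and 0.13 for Rpl15 (exact binomial adjusted p = 0.00723). The lowest ratios after Rps27rt were those of Rps27l, -0.25, which did not pass (exact binomial adjusted p = 0.337), and Rpl35. The order of the core members was nearly the same in both libraries, with a Spearman rho of 0.994 across 77 genes.

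**Figure D5:**
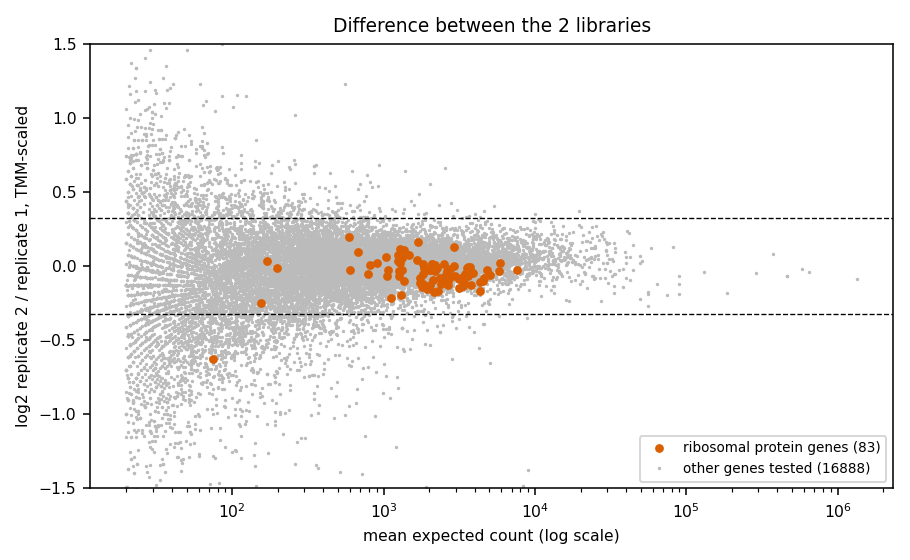
Log2 ratio of replicate 2 over replicate 1 (TMM-scaled) against mean expected count (log scale) for 83 ribosomal protein genes (orange) and the other genes tested (grey), with a difference of 25% marked by dashed lines and 130 genes beyond the plotted range. The members lie in a narrow band about 0, and the 1 outside the lines is Rps27rt.

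Genes that work with the ribosome were read beside the members. Among ribosome proteins outside the naming pattern, levels lay within the members' range for the ubiquitin-like fusion Fau at 390 ± 5.76 TPM and the scaffold Rack1 at 121 ± 8.44 TPM (SD, n = 2). Among 7 elongation factors, with a median of 190 ± 1.91 TPM, Eef1a1, which delivers aminoacyl-tRNA, reached 1558 ± 7.56 TPM, its neuronal and muscle paralog Eef1a2 438 ± 24.6 TPM and the translocase Eef2 393 ± 6.99 TPM. The 28 initiation factors had a median of 53.5 ± 2.20 TPM, led by the helicase Eif4a2 at 373 ± 3.48 TPM, Eif1 at 324 ± 9.90 TPM and Eif4g2 at 253 ± 8.00 TPM. Translation factors thus ranged around the core median of 221 TPM, with initiation factors mostly below it.

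The 16 other TOP mRNAs had a median of 102 ± 2.52 TPM, led outside the elongation factors by Tpt1 at 454 ± 3.75 TPM. Ribosome biogenesis genes, 25 in number, had a median of 18.2 ± 1.07 TPM, led by the nucleolar proteins Npm1 at 87.8 ± 0.262, Ncl at 73.9 ± 3.40 and Nop56 at 67.8 and 62.3 TPM. The 14 S6 kinase and TOP regulator genes had a median of 19.1 ± 0.583 TPM, led by Tsc2 at 80.6 ± 9.86, the TOP-binding protein Larp1 at 42.9 ± 0.276 and the kinase Mtor at 39.2 ± 1.46 TPM. By the exact binomial test, 3 of 7 elongation factors and 4 of 16 other TOP mRNAs were lower in replicate 2, and 1 and 0 were higher. These lists share Eef1a1, Eef2, Eef1b2, Eef1d and Eef1g, and the 3 elongation factors called lower, Eef1a1, Eef2 and Eef1g, are among the 4 TOP mRNAs called lower. Of 28 initiation factors 1 was lower and 4 higher, and of 25 biogenesis genes 1 was lower and 4 higher, with none of the 14 regulators passing. By the same test 9.13% of all genes tested were lower and 9.29% higher. The median log2 ratios of these lists ran from -0.03 for elongation factors to 0.07 for biogenesis genes.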

How the data were processed

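Total RNA-seq (ribosomal RNA depleted, directional kit, ERCC spike-ins, per the labels) gave 2 libraries of 1 group. The tables use mm10, per the labels; their gene identifiers match GENCODE M21. No aligner or quantifier is given in the sources used here. The deposited expected counts of the alignment-based tables and estimated counts of the alignment-free table are the authors' estimates and need not be whole, so they were rounded for the binomial test. The deposited TPM columns, per the file headers, are relative to transcript length and to the library. The deposited coefficient of quartile variation is a ratio, and the deposited percent column gives each transcript's share of its gene. Alignment-free values were summed per gene.

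Members, lists, roles and tests were chosen with earlier results of these data known. Replicates 1 and 2 held 26128897 and 28689423 expected counts, and 29554433 and 32341517 alignment-free counts; a count of 0 allows up to 3 counts. Log2 ratios used edgeR (4.0.16, R 4.3.3) TMM scaling, a prior count of 0.5 and a mean count of at least 20. The binomial step was tested on simulated counts. Copies were sought with BLAST 2.17.0. Named genes were the 5 highest and lowest members, the variants with their partners, genes with a listed role, the extremes of each ratio or share, and the 3 highest of each list; some are not reported here or shown in the plots. Alternatives were DESeq2 (1.42.0) size factors, library size, spike-in scaling, other thresholds, posterior mean TPM, the alignment-free table, core members only and leaving out each replicate. Protein sequences were not used here. Python 3.11.15 with numpy 2.4.6, pandas 2.3.3, scipy 1.17.1 and matplotlib 3.10.9 did the rest.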

Additional observations from a re-analysis of the deposited data

How the results depend on the processing

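No paired analysis was possible because the 2 libraries form 1 group. Of 71 alternative values over 12 results, 46 kept their direction and size, 23 moved and 2 reversed; leaving out either replicate moved none of the 9 results that 1 library can give. Under spike-in scaling the members' median log2 ratio of replicate 2 over replicate 1 reversed to 0.22, 10 members passed 25%, where 41.4% of genes tested did, and 76 the binomial test, where 59.1% did. The count past 25%, 1 at the main setting, was 0 with alignment-free counts, where 18.6% of genes tested passed. It was 0 at a mean count of at least 100, where 8.04% passed, and 2 with no count filter, where 42.6% passed. At 2-fold it was 0. With the alignment-free table the log2 ratio of small over large subunit reversed to -0.0199, the median level was 232 TPM, the SD of log2 TPM over core members 0.75, the pseudogene share 4.99% and the coding share 93.2%. Posterior mean TPM gave a median level of 198 TPM, and core members alone 221 TPM. The subunit ratio was 0.36 as a mean of log2 TPM. The spread over all members above 0 was 1.59. TPM ratios put 13 members past 1.5-fold between the tables, in place of 8. A coefficient of quartile variation of at least 0.02 held for 35 members and of at least 0.1 for 1. For these limits and for the TPM ratios no share over all protein-coding genes is given, so the counts have no background. Named pseudogenes held 13.5% of TPM. Alternatives with sequence copies were chosen after seeing the data. With them the subunit ratio was 0.14, the spread 0.57 (0.62 alignment-free), 2 members were past 1.5-fold between the tables, and the copies' share 21.7% in place of 11.4%. The cause of each change was not tested, except that fewer genes enter at higher count limits. Depth limits the variants at 0 to 6 counts.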
